A study of Mus musculus with 15 samples.

Results

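Histone H3 trimethylated at lysine 4 (H3K4me3) was followed in mouse liver at 10 genes of the endoplasmic reticulum (ER) stress response, chosen by name from 21755 protein-coding genes. They are the sensors Ern1, Eif2ak3 and Atf6, the transcription factors Xbp1, Atf4 and Ddit3, and the ER chaperones Hspa5, Hsp90b1, Calr and Pdia4. A gene counted as marked in a library when a peak, called an island by the peak caller SICER2, lay within 1 kb of any of its transcription start sites (TSSs) in the GENCODE annotation of mm10. All 10 genes had a peak in at least 11 of the 15 libraries, and 5 of them (Atf4, Hspa5, Hsp90b1, Calr and Pdia4) had one in every library.

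The unfolded protein response matches the folding capacity of the ER to its load of client proteins. IRE1, PERK and ATF6 sit in the ER membrane and are held inactive by the chaperone BiP, and when released they act through spliced XBP1, translated ATF4 and cleaved ATF6 on the genes of chaperones and of protein degradation. The pathway has a large role in hepatocytes, which secrete most plasma proteins. H3K4me3 marks the promoters of active and poised genes, and broad H3K4me3 domains are often seen at highly transcribed genes of a cell type.

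The livers came from C57BL/6 females (C57BL/6J in the study's methods), with 3 mice on each of 5 diets and 1 library per mouse. The diets were a standard diet (SD), caloric restriction (CR), a high-fat diet (HF), a standard formula in which the maize was replaced by yellow corn without anthocyanins (YD), and the same formula with the near-isogenic purple corn, which holds anthocyanins (RD). The methods give an age of 3 months at the start and 10 months of feeding, whereas the labels give an age of 12 months, and all groups other than CR ate ad libitum. Chromatin was extracted from sections of formalin-fixed, paraffin-embedded whole liver (PAT-ChIP), so a mark lost in hepatocytes and a smaller share of hepatocytes cannot be told apart.

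The promoters of Hspa5, Hsp90b1 and Calr are shown because each holds an ER stress response element (ERSE), the site through which NF-Y and cleaved ATF6 act on chaperone genes, and that of Eif2ak3 because this gene had no peak in any YD library. Each run is the 250 bases before the RefSeq start site, 5′ to 3′ on the strand of the gene, with both parts of an ERSE (CCAAT and CCACG, or their reverse complements) in capitals. The regions in mm10 are chr2:34771840-34772089 for Hspa5 (plus strand), chr10:86705445-86705694 for Hsp90b1 (minus strand), chr8:84846932-84847181 for Calr (minus strand) and chr6:70844265-70844514 for Eif2ak3 (plus strand).
Hspa5: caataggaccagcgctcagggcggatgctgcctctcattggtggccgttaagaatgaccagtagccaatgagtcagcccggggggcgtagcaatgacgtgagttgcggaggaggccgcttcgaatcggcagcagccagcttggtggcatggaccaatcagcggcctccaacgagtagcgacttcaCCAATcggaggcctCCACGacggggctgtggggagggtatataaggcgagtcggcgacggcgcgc
Hsp90b1: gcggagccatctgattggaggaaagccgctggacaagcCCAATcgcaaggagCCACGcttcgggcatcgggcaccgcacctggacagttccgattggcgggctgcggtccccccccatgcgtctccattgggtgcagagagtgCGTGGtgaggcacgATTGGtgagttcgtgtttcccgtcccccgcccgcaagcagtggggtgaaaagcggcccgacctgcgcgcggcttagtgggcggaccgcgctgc
Calr: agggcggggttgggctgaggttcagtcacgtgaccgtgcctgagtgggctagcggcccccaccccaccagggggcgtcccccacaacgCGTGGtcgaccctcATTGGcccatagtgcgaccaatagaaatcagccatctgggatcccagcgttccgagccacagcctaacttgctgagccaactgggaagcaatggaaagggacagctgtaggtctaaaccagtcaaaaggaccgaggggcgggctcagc
Eif2ak3: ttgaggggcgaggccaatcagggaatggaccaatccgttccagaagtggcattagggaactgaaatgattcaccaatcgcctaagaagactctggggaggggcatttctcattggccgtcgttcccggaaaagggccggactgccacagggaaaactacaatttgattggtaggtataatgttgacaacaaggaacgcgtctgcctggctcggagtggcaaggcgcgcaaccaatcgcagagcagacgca

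These windows came from the RefSeq table for GRCm38.p6, which matched 9 of the 10 genes. Atf6 was not matched. The ERSE was searched as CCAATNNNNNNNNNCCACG on both strands. It was found in 3 of the 9 windows and in 0.113% of the 32851 windows of the same length in the table. Hspa5 held it 65 to 47 bases before the RefSeq start site, chr2:34772090. The 5′-most GENCODE TSS of Hspa5, used for the peak extents below, is chr2:34771970, and the element lies downstream of that site. Hsp90b1 held one copy on each strand, with the same-strand copy 212 to 194 and the opposite-strand copy 107 to 89 bases before the start. The Calr copy lay on the opposite strand, 162 to 144 bases before the start. At Hsp90b1, on the minus strand, the RefSeq start (chr10:86705444) also lies downstream of the 5′-most GENCODE TSS (chr10:86705509). The CCAAT box alone, which is also part of every ERSE, was found in 7 of the 9 windows and in 33.8% of all windows. None of the 9 windows held the ERSE-II (ATTGG and CCACG with 1 base between them, 0.0304% of all windows), the XBP1 site known as UPRE (TGACGTGG, 0.563%) or the CARE bound by ATF4 (TGATGNAA, 3.45%). The share of G and C ran from 50.4% in Xbp1 to 66.8% in Hsp90b1 and in 8 of the 9 windows was above the median of 52.4% over all windows. The windows held 8 to 25 CpGs against a median of 6. A match is a run of letters and was not tested for binding.

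Over all protein-coding genes, 9.46% had a peak in all 15 libraries, against 5 of the 10 ER stress genes. A peak in at least 11 libraries was held by 30.2% of protein-coding genes. The cut of 11 was the smallest number found among the 10 ER stress genes, so all 10 meet it by definition. Every SD and HF library held a peak at all 10 genes. In CR, CR_1 lacked Ddit3 and marked 9, whereas CR_2 and CR_3 marked 10. The RD libraries marked 10, 9 and 9 genes, since RD_2 and RD_3 lacked Ern1. The YD libraries marked 8, 8 and 5, the fewest of the 15. The YD lists were also short, with 7825, 9405 and 10906 peaks against 10501 to 33752 in the other diets, and marked 17.5% to 26.5% of all protein-coding genes against 27.8% to 54.6%. The number of reads recovered from the score steps ran from 5589269 in CR_1 to 13978169 in RD_2 over 14 libraries. For YD_1, the library with the shortest list, the value of 15449854 rests on 2 peaks of 1 window and is uncertain.

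**Figure D1:**
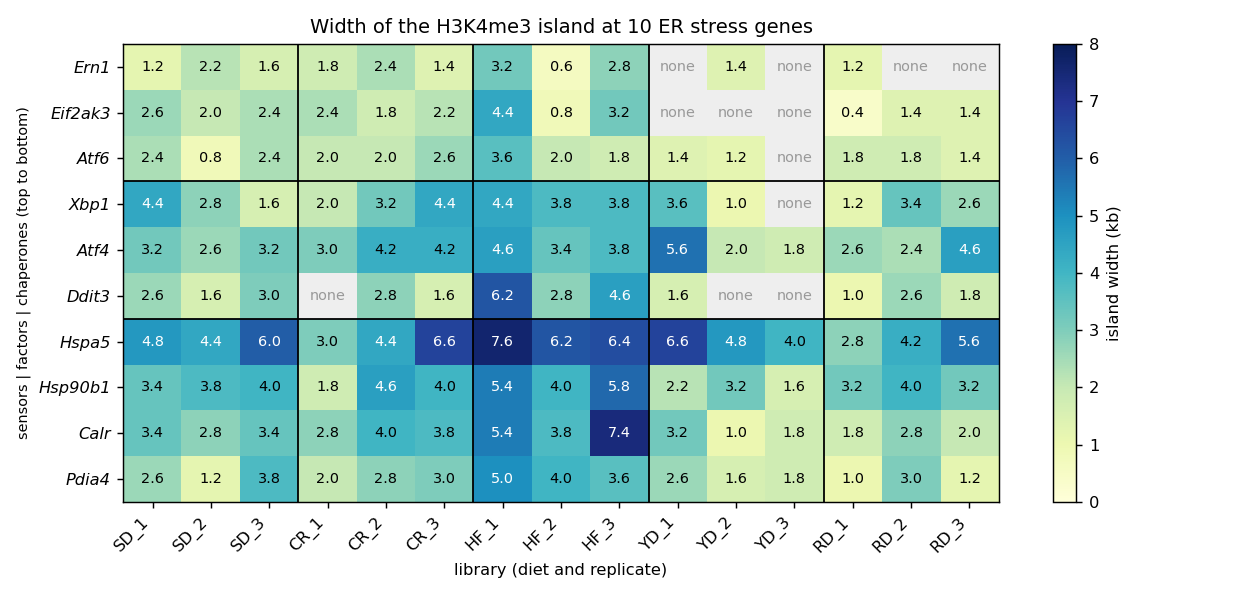
Width in kb of the H3K4me3 peak at each of the 10 genes (rows, ordered as sensors, transcription factors and chaperones) in each of the 15 libraries (columns, 3 per diet), with "none" where no peak lay within 1 kb of a TSS. Empty cells stand at Ern1, Eif2ak3, Atf6, Xbp1 and Ddit3 and are most frequent in YD. The widest peak of a library is mostly that of Hspa5, but that of Calr in HF_3 and of Hsp90b1 in CR_2 and RD_1, and in CR_1 Atf4 is as wide as Hspa5.

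The 3 sensors had the narrowest peaks by the median, 1600 bp at Ern1, 1900 bp at Atf6 and 2100 bp at Eif2ak3, and accounted for 8 of the 12 absent peaks. Ern1 encodes IRE1, the kinase and endoribonuclease that splices Xbp1 mRNA, and was marked in 11 libraries, with peaks of 600 to 3200 bp. It was marked in all SD, CR and HF libraries but in 1 YD library (YD_2, 1400 bp) and 1 RD library (RD_1, 1200 bp). Its score percentile, the share of the other peaks of the same list with a lower score, ranged from 20.1 in SD_3 to 87.9 in SD_1, so the widest spread lay within SD. Atf6, a membrane-bound factor that is cut in the Golgi to release its active form, was marked in 14 libraries and was absent in YD_3.

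Eif2ak3 encodes PERK, the kinase that phosphorylates eIF2α and slows translation. Its peak was 2600, 2000 and 2400 bp wide in SD_1, SD_2 and SD_3, 2400, 1800 and 2200 bp in CR, 4400, 800 and 3200 bp in HF, and 400, 1400 and 1400 bp in RD, and it was absent in YD_1, YD_2 and YD_3. Every RD peak was thus narrower than every SD peak, and no YD library had one. The same order of RD and SD held for 10.7% of the genes with a peak in all 15 libraries, a set that does not include Eif2ak3. The score percentile was 72.1, 88.6 and 55.7 in SD, 67.7, 61.5 and 76.7 in CR, 86.6, 17.1 and 60.7 in HF, and 4.57, 33.5 and 57.0 in RD. The SD and RD values overlapped on this scale. Where present, the peak left the annotated TSS uncovered in 6 of 12 libraries, among them all 3 RD libraries, and then began 86 or 286 bp inside the gene.

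Xbp1 encodes the factor that IRE1 activates by splicing its mRNA. It was marked in 14 libraries, all but YD_3, with widths from 1000 bp in YD_2 to 4400 bp in SD_1, CR_3 and HF_1. Its score percentile was above 93 in 11 libraries and lowest in SD_3 (46.0). Ddit3 encodes CHOP, a factor linked to cell death under lasting stress, and was absent in CR_1, YD_2 and YD_3. Its widest peak measured 6200 bp, in HF_1, and its narrowest 1000 bp, in RD_1. GENCODE lists Ddit3 under 2 overlapping gene records, of which the one with more transcripts was used.

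Atf4 encodes the factor whose translation increases when eIF2α is phosphorylated. Its peak was 3200, 2600 and 3200 bp wide in SD, 3000, 4200 and 4200 bp in CR, 4600, 3400 and 3800 bp in HF, 5600, 2000 and 1800 bp in YD, and 2600, 2400 and 4600 bp in RD. The widest and the narrowest peak both came from YD. All 3 HF peaks were wider than all 3 SD peaks, as at 16.0% of the genes with a peak in all 15 libraries. Its score percentile stayed between 90.4 (YD_3) and 98.9 (CR_3), the second narrowest range of the 10 genes.

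Hspa5 encodes BiP, the main Hsp70 chaperone of the ER lumen. Its peak was 4800, 4400 and 6000 bp wide in SD, 3000, 4400 and 6600 bp in CR, 7600, 6200 and 6400 bp in HF, 6600, 4800 and 4000 bp in YD, and 2800, 4200 and 5600 bp in RD. It was the widest peak of the 10 genes in 12 of the 15 libraries, in CR_1 together with Atf4 (3000 bp each). The score percentile lay between 95.1 (CR_1) and 99.8 (HF_1), where it ranked 41st of 21280 peaks. Its mean width of 5160 bp ± 1402.4 (SD, n = 15) exceeded that of 96.7% of the 2059 genes marked in every library, whose median was 2546.7 bp.

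Hsp90b1 encodes GRP94, the Hsp90 protein of the ER. Its peak was 3400, 3800 and 4000 bp wide in SD, 1800, 4600 and 4000 bp in CR, 5400, 4000 and 5800 bp in HF, 2200, 3200 and 1600 bp in YD, and 3200, 4000 and 3200 bp in RD. All YD peaks were narrower than all SD peaks, as at 14.0% of the genes with a peak in all 15 libraries. On the score percentile, SD had 98.6, 97.0 and 95.7, CR 72.0, 96.0 and 99.1, HF 98.2, 96.1 and 98.7, YD 84.6, 90.8 and 91.4, and RD 96.2, 97.4 and 97.3. YD stood below SD and RD without overlap, as at 26.5% and 17.7% of the genes with a peak in all 15 libraries. It also stood below HF, where this share was not counted, and the lowest value came from CR_1.

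Calr encodes calreticulin, a lectin chaperone that binds glycoproteins and calcium. Its peak was 3400, 2800 and 3400 bp wide in SD, 2800, 4000 and 3800 bp in CR, 5400, 3800 and 7400 bp in HF, 3200, 1000 and 1800 bp in YD, and 1800, 2800 and 2000 bp in RD. All HF peaks were wider than all SD peaks, as at 16.0% of the genes with a peak in all 15 libraries, and YD_1 lay inside the range of SD. The score percentile was 95.2, 97.4 and 97.9 in SD, 81.1, 94.9 and 98.7 in CR, 99.1, 96.6 and 98.6 in HF, 93.6, 88.7 and 81.3 in YD, and 72.7, 96.5 and 79.3 in RD. Every YD value was below every SD value, as at 26.5% of the genes with a peak in all 15 libraries, whereas RD_2 lay inside the SD range.

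Pdia4 encodes ERp72, a protein disulfide isomerase. Its peak ranged from 1000 bp in RD_1 to 5000 bp in HF_1 with a mean of 2613.3 bp ± 1164.9 (SD, n = 15), wider than 53.9% of the genes marked in every library. Its mean score percentile of 79.5 ± 16.3 (SD, n = 15) was above that of 34.0% of those genes, whose median was 84.0. Within SD alone it ran from 54.8 (SD_2) to 96.9 (SD_1).

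**Figure D2:**
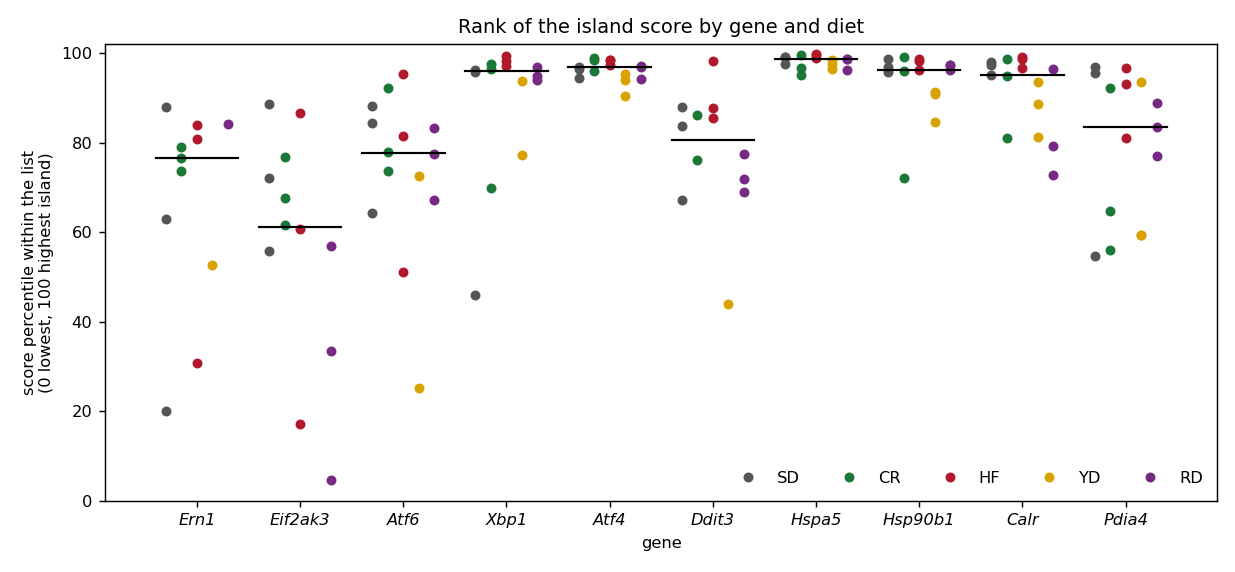
Score percentile of the peak at each gene, from 0 for the lowest to 100 for the highest score of the list, with 1 point per library in the colour of its diet and a bar at the median of the libraries with a peak. Hspa5 and Atf4 stay above 90 in all 15 libraries, and the values of the 3 sensors scatter from 4.57 to 95.4.

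The order by median score percentile was Hspa5 (98.5), Atf4 (96.8), Hsp90b1 (96.2), Xbp1 (95.9), Calr (95.2), Pdia4 (83.6), Ddit3 (80.6), Atf6 (77.7), Ern1 (76.5) and Eif2ak3 (61.1). Compared within libraries, Hspa5 was above Atf4 in 12 of 15 and Calr above Pdia4 in 12 of 15. Hsp90b1 was above Xbp1 in 10 of 14 and Pdia4 above Ddit3 in 8 of 12. At the remaining neighbours the order was near even, with Atf4 above Hsp90b1 in 7 of 15 libraries, Xbp1 above Calr in 7 of 14, Ddit3 above Atf6 in 6 of 12, Atf6 above Ern1 in 6 of 11 and Ern1 above Eif2ak3 in 6 of 10. The score is a sum over windows and so grows with width. Ranked by the score per 200-bp window, the order began with Atf4 (median percentile 91.3), Xbp1 (88.6), Calr (84.7) and Hspa5 (82.2), and again ended with Eif2ak3 (62.2). On this scale Calr was above Hspa5 in 6 of 15 libraries.

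In mm10, the stretch covered in every library was chr2:34771001-34773600 at Hspa5, chr15:80255601-80257000 at Atf4, chr10:86704201-86705400 at Hsp90b1, chr8:84845801-84846600 at Calr and chr6:47813001-47813200 at Pdia4. At the genes without a peak everywhere, the stretch shared by the libraries with one was chr11:106486801-106487200 at Ern1, chr6:70844801-70845200 at Eif2ak3, chr1:170867401-170867800 at Atf6, chr11:5521001-5521800 at Xbp1 and chr10:127290801-127291600 at Ddit3. All of these lie within the promoter distance of an annotated start, and those of Atf6 and Hspa5 hold the 5′-most TSS itself. Relative to the 5′-most TSS of each gene, the peaks reached further into the gene than upstream of it at all 10 genes by the median. Hspa5 covered its TSS in all 15 libraries, from a median of 1569 bp upstream to 3430 bp downstream. Atf6 covered it in all 14 libraries with a peak, Xbp1 in 13 of 14 and Hsp90b1 in 13 of 15. The medians for Hsp90b1 were 1291 bp upstream and 2308 bp downstream. Ern1 covered its 5′-most TSS, at chr11:106487852, in 4 of 11 libraries, since most of its peaks began downstream of it. Its 5 TSSs reach down to 106487796. The peaks in CR_1, YD_2 and RD_1 end at 106487800 and so cover that last site. At Atf4 and Calr, 3 peaks each began downstream of the TSS, in YD_2 and YD_3 and, for Atf4, RD_2 or, for Calr, RD_3. The ERSE lay inside the peak in all 15 libraries at Hspa5, in 13 at Hsp90b1 and in 12 at Calr.

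**Figure D3:**
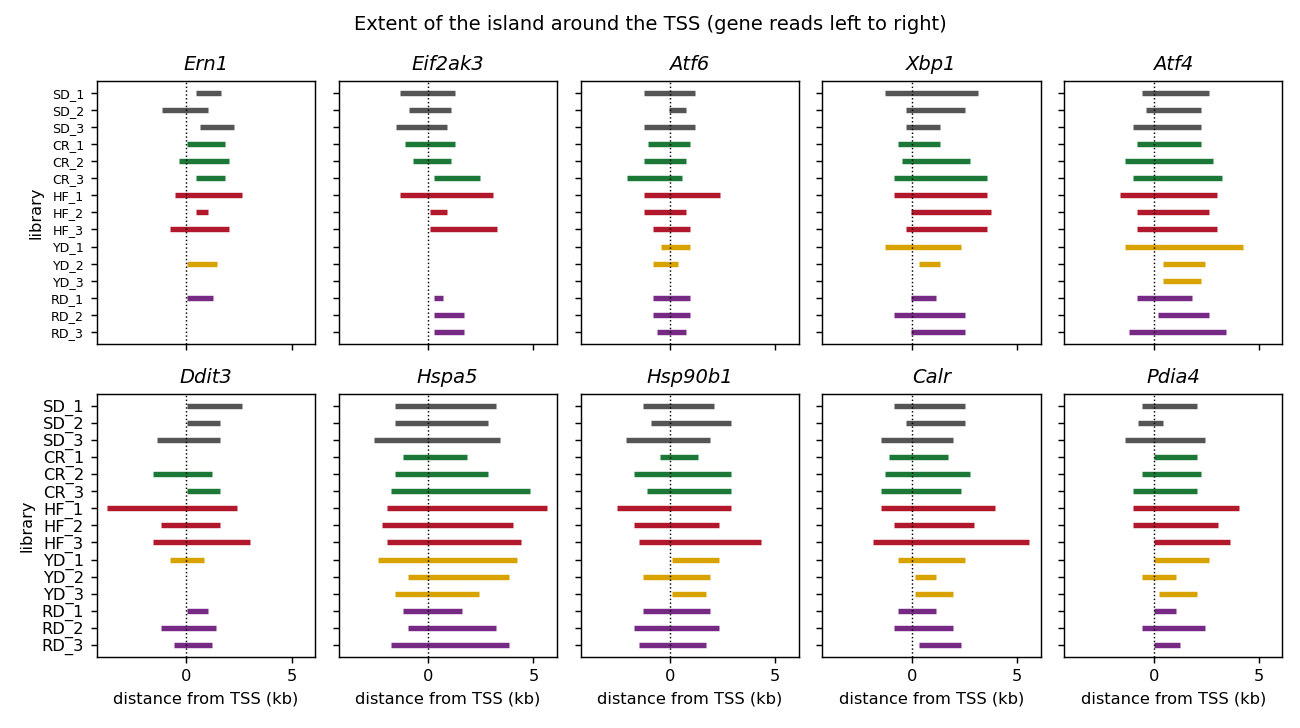
Extent of the peak around the 5′-most annotated TSS (dotted line at 0, distance in kb, with the gene to the right) for each gene, with 1 line per library in the colour of its diet and no line where no peak was present. Hspa5 spans the TSS in every library, and at Eif2ak3 all 3 RD peaks begin to the right of it.

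Some peaks also lay within 1 kb of start sites of other genes, so that the mark could not be assigned to one gene. A peak is said here to reach a gene when a TSS of that gene lay within this distance, whether or not the peak covered it. The Hsp90b1 peak lay within 1 kb of a TSS of the coding gene Ttc41 and of the small RNA gene Gm25745 in all 15 libraries. The Calr peak reached the noncoding gene 1700122E12Rik in 15 libraries. The Ddit3 peak reached Gm4189 in 12 libraries, Mbd6 in 7 and Gm20492 in 4, the Atf6 peak Gm9929 in 14 and the Pdia4 peak the pseudogene Rpl35a-ps7 in 1. No other gene lay within reach of the peaks of Ern1, Eif2ak3, Xbp1, Atf4 and Hspa5.

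Diets were first compared by presence. A gene counted as lost or gained when a peak stood in at least 2 of the 3 libraries of one diet and was absent from the 3 libraries of the other. Eif2ak3 was lost in YD against SD (0 of 3 against 3 of 3), as were 15.8% of the 13044 coding genes with a peak in any library. It was gained in RD against YD (3 of 3 against 0 of 3), as were 6.36% of those genes. No ER stress gene met the rule in CR, HF or RD against SD. All 10 had a peak in every SD library, so a gain against SD was not possible for them and only a loss could be seen. In these comparisons, 2.98%, 7.83% and 0.368% of the 13044 genes were gained and 0.560%, 0.123% and 6.53% lost. In the opposite direction to Eif2ak3, 0.0613% were gained in YD against SD and 0.406% lost in RD against YD. All 10 genes were marked in the 3 SD libraries, as were 6341 coding genes in all. Of these 6341, 61.0% lacked a peak in at least 1 YD library, against 5 of the 10 ER stress genes, and 12.0% lacked it in all 3, against 1 of the 10. YD_3 lacked 49.1% of the 6341 and 5 of the 10, and so the ER stress genes were near the share of other genes. Of the 12 absent peaks, 9 were in YD. All 12 were at sensors or transcription factors, and the 4 chaperones had a peak in every library.

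Widths and score percentiles were then tested with limma over the 2059 coding genes marked in all 15 libraries, with the adjusted p taken over all of them. Of the ER stress genes, Atf4, Hspa5, Hsp90b1, Calr and Pdia4 entered this test, and the other 5 did not because a peak was missing somewhere. A gene that enters must have kept its peak in YD, so losses are outside this test. Across the 5 diets, none of the 5 genes was called for width, as was none of the 2059 (0%), of which 474 had an unadjusted p under 0.05. Calr had the smallest p (unadjusted 0.00963, limma adjusted p = 0.167). For the score percentile, 0.826% of the genes tested were called and none of the 5, with Atf4 lowest (unadjusted p = 0.0281, limma adjusted p = 0.194).

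HF against SD gave a positive log2 width difference at all 5 genes, with a median of 0.43 against 0.34 over all 2059 genes. The differences were 0.39 ± 0.40 at Atf4, 0.42 ± 0.34 at Hspa5, 0.43 ± 0.36 at Hsp90b1, 0.74 ± 0.39 at Calr and 0.87 ± 0.45 at Pdia4 (± SE, 3 against 3 libraries). None was called by limma (adjusted p of 0.775 to 0.801), and none of the 2059 genes was (0%), with 123 at an unadjusted p under 0.05. At Atf4, Hspa5 and Calr every HF library was above every SD library, which held for 16.0% of the genes tested. All 5 estimates also remained positive when any one HF or SD library was left out. The library names take a ChIP or a PATChIP form, and HF_2 and HF_3 but no SD library had the latter. With this form as a term, the median over the 5 genes was 0.845 against 0.515 over all genes. Then 2 of the 5 had an unadjusted limma p under 0.05 and none was called. After centring each library on its median log2 width, which brought the median over all genes to 0.01, all 5 differences remained positive, from 0.06 at Atf4 to 0.54 at Pdia4. The score percentile differed by 0.57 to 7.86 points, again positive in all 5, but in 4 of 5 without SD_2 or SD_3 and in 3 of 5 when the percentile was taken among the genes tested. Atf4 was above SD in every HF library, as were 10.7% of the genes. HF_1 also held peaks at 3 of 6 Kupffer cell, 6 of 6 sinusoidal endothelial and 3 of 6 stellate cell markers, where the SD libraries held none, 0 to 4 and 0 to 1. HF_2 held 0, 2 and 1 of these markers and HF_3 held 1, 4 and 2. Of 6 lymphocyte markers, HF_1, HF_2 and HF_3 held 1, 0 and 0, and SD_1, SD_2 and SD_3 held 0, 1 and 0. HF_1 also marked the largest share of all coding genes, 54.6% against 32.7% to 43.1% in SD. Without HF_1 the median log2 width difference over the 5 genes was 0.37. The part of other cell types in the widths was not tested.

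YD against SD gave log2 width differences of -0.83 ± 0.39 at Calr and -0.73 ± 0.36 at Hsp90b1, with limma adjusted p of 0.296 and 0.306. Those of Pdia4 (-0.22 ± 0.45), Atf4 (-0.13 ± 0.40) and Hspa5 (0.00 ± 0.34) were smaller than their standard errors. The median over the 5 genes was -0.22, and that over all genes -0.49. It moved when single libraries were left out, to -0.65 without YD_1, -0.68 without SD_2 (all genes -0.56), -0.08 without YD_2 or SD_3 and -0.13 without SD_1, and 2 of the 5 differences were positive without YD_2, YD_3 or SD_3. None of the 2059 genes was called (0%), with 342 at an unadjusted p under 0.05. Hsp90b1 was narrower in every YD library than in every SD library, as were 14.0% of the genes. After centring, the median of all genes moved to 0.08 and the sign turned at Atf4 (0.43) and Pdia4 (0.34), whereas Calr (-0.27) and Hsp90b1 (-0.17) stayed negative. Without YD_1, the difference at Calr was -1.25 and was called (limma adjusted p = 0.0349), as were 15.3% of the genes tested, with a median difference of -0.75 over all of them.

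The score percentile in YD was below that in SD at all 5 genes, with differences of -1.12 points at Hspa5, -2.75 at Atf4, -8.14 at Hsp90b1, -8.98 at Calr and -11.7 at Pdia4 and a median of -8.14 against -11.0 over all genes. Without SD_1 the medians were -4.41 and -8.39, and without SD_3 -5.11 and -14.0, with all 5 genes still lower. None of the 5 was called by limma (adjusted p of 0.222 to 0.577), against 3.30% of the genes tested, of which 66 were lower and 2 higher in YD. At Hsp90b1 and Calr every YD library was below every SD library, which held for 26.5% of the genes. Taken among the genes tested, the differences at Atf4 and Hspa5 became positive. Without CR_1, the library with its lowest value, Hsp90b1 was called at the same difference (limma adjusted p = 0.0333), as were 2.28% of the genes tested. The hepatocyte markers were present in YD_1 (8 of 8), YD_2 (8 of 8) and YD_3 (5 of 8), against 6 to 8 in SD. The Kupffer cell, sinusoidal endothelial, stellate cell and lymphocyte markers, 6 of each, had no peak in any YD library. The SD libraries held 0, 0 to 4, 0 to 1 and 0 to 1 of these.

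To bring in the genes with missing peaks, an absent peak was set to a width of 0 and log2(width + 200 bp) was tested over the 13044 coding genes with a peak in any library, an alternative chosen after the values had been seen. Eif2ak3 was the only one of the 10 genes called, in YD against SD (-3.66 ± 0.58, limma adjusted p = 0.00223) and across the 5 diets (limma adjusted p = 0.00293), where 5.51% and 14.7% of all genes were called. The size of this difference depends on the 200 bp added. All 3 YD values of Eif2ak3 were set values and so show no spread between mice. Ddit3 (-2.60 ± 0.98, adjusted p = 0.149), Ern1 (-2.19 ± 0.91, 0.188), Xbp1 (-1.59 ± 0.83, 0.277) and Atf6 (-1.31 ± 0.70, 0.289) had larger differences in the limma fit than the chaperones but did not pass. The chaperones had no absent peak, so this order follows from the value set for absent peaks. In RD against YD, Eif2ak3 had 2.53 ± 0.58 (limma adjusted p = 0.0595), with 0.874% of genes called. With an absent peak at percentile 0, Eif2ak3 did not pass in YD against SD (limma adjusted p = 0.0565), where 2.14% of all genes did.

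In RD against SD, the log2 width differences were -0.57 ± 0.45 at Pdia4, -0.56 ± 0.39 at Calr, -0.32 ± 0.34 at Hspa5, -0.11 ± 0.36 at Hsp90b1 and 0.04 ± 0.40 at Atf4, with a median of -0.32 against -0.29 over all genes. Without RD_1 the median over the 5 genes was -0.06, and without SD_3 it was -0.19. None of them was called by limma (adjusted p of 0.708 to 1.0), nor was any of the 2059 genes (0%), with 142 at an unadjusted p under 0.05. After centring, Hsp90b1 turned positive (0.20). The score percentile of Calr differed from SD by -14.0 ± 5.74 points (unadjusted p = 0.0286, limma adjusted p = 0.984). The other 4 genes differed by less than 1 point. No gene was called here either (0%), with 95 at an unadjusted p under 0.05.

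In CR against SD, the width differences ran from -0.21 ± 0.36 at Hsp90b1 to 0.33 ± 0.40 at Atf4 on the log2 scale, with a median of 0.13 against 0.14 over all genes. This median was 0.29 without CR_1, 0.03 without CR_2, 0.05 without CR_3 and -0.20 without SD_2. The sign at Calr turned after centring (0.13 to -0.01). The score percentile was lower at 4 of 5 genes, with differences of -1.52 to -11.5 points and a median of -5.25 against 1.39 over all genes. Without CR_1 these medians were -0.01 and 4.00, with 3 of 5 genes lower, and without CR_3 they were -8.83 and -0.41. With the form of the library name as a term they were 0.02 and 4.00, with 2 of 5 genes lower. Limma called none of the 5 and none of the 2059 genes (0%) on either scale, with 50 genes at an unadjusted p under 0.05 for width and 34 for the percentile. The lowest CR value came from CR_1 at all 5 genes for the percentile, and this library had the fewest recovered reads. The part of depth was not tested.

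RD against YD compares purple with yellow corn. Hsp90b1 had a log2 width difference of 0.62 ± 0.36 and a score percentile 7.99 ± 4.97 points higher in RD, with limma adjusted p of 0.823 and 0.383. Its percentile was above YD in every RD library, as were 17.7% of the genes. At the other 4 genes the width differences lay between -0.35 and 0.27. Over the 5 genes the median was 0.17 for width against 0.20 over all genes, and 2.83 points for the percentile against 7.50. The width median was 0.61 without YD_1, -0.15 without YD_2, -0.13 without YD_3, -0.12 without RD_3, 0.29 without RD_1 and 0.08 without RD_2, and the percentile median was 1.45 without YD_3. Signs depended on the scale, since Atf4 had a width difference of 0.17 before and -0.08 after centring, and Atf4, Hspa5 and Pdia4 turned negative for the percentile among the genes tested. Limma called none of the 5, against 0% of the 2059 genes for width and 0.146% for the percentile, with 122 and 404 at an unadjusted p under 0.05. SD libraries were shared by the CR, HF, YD and RD comparisons, and YD libraries by the last.

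**Figure D4:**
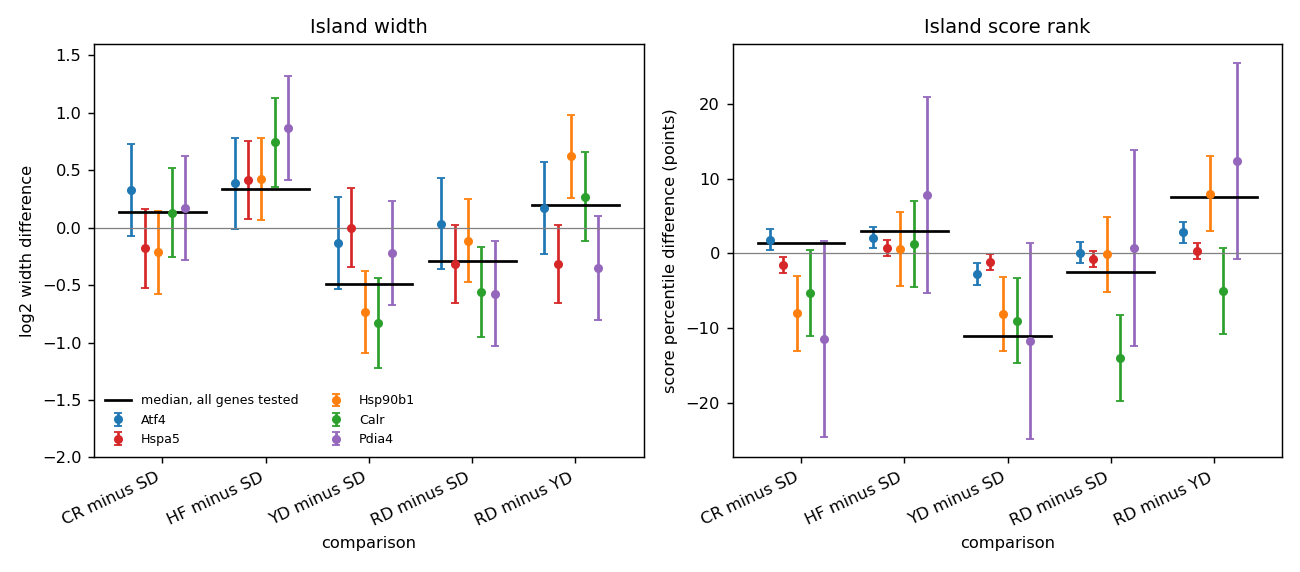
Difference between diets at the 5 genes tested, as log2 width (left) and as score percentile in points (right), with points at the limma estimate, bars of ± 1 SE and a black line at the median over the 2059 genes tested. All 5 width estimates lie above 0 in HF against SD, and 47 of the 50 estimates lie within 2 SE of 0.

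A further 79 genes of the pathway were taken from lists for ER chaperones and folding, ER-associated degradation, the integrated stress response, membrane factors with proteases and IRE1 partners, and the translocon. Of these, 24 had a peak in all 15 libraries and 2 in none. The number marked was 69, 69 and 59 in SD, 67, 73 and 72 in CR, 75, 74 and 76 in HF, 52, 55 and 29 in YD, and 62, 60 and 53 in RD. The HF counts were above and the YD counts below those of SD, and RD_3 lay below YD_2. Over all coding genes the shares marked were 32.7% to 43.1% in SD, 47.6% to 54.6% in HF and 17.5% to 26.5% in YD, likewise without overlap with SD. The genes marked everywhere were 7 of 21 for chaperones and folding, 5 of 15 for degradation, 5 of 16 for the integrated stress response, 3 of 14 for membrane factors and 4 of 13 for the translocon, against 9.46% of all coding genes.

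The genes without a peak in any library were Nupr1, a stress-induced cofactor, and Ern2, the IRE1 paralogue of gut and airway epithelium. Derl3, of the degradation machinery, and Asns, an ATF4 target for asparagine synthesis, had a peak in 1 library each. Chac1, an ATF4 target that degrades glutathione, and Creb3l1 had one in 2, Sil1 and Trib3 in 6, Nfyb in 7, Sdf2l1 and Ube2j1 in 8, and Atf3, Traf2 and Bloc1s1 in 9. Trib3 and Atf3 are stress-induced regulators, Nfyb is a subunit of NF-Y, and Traf2 binds activated IRE1.

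Of the 24 pathway genes that entered the limma test, none was called for width in any comparison with all 15 libraries. Without YD_1, 5 of them (Creb3, Dnajb11, Eif2s1, Herpud1 and Pdia3) were called for width in YD against SD, where 15.3% of all genes were. In the same setting 6 were called across the 5 diets and 1 in RD against YD, beside 16.2% and 2.72% of all genes tested. With all 15 libraries, 3 were called for the score percentile, all lower in YD than in SD, where 3.30% of all genes were called. Pdia3, the calreticulin-associated isomerase ERp57, had 97.4, 94.1 and 88.8 in SD and 76.8, 66.4 and 70.7 in YD, a difference of -22.1 ± 4.78 (limma adjusted p = 0.0277). Ube2g2, a ubiquitin-conjugating enzyme of ER-associated degradation, had 86.4, 66.2 and 47.1 in SD and 17.6, 20.9 and 30.9 in YD (-43.5 ± 11.0, limma adjusted p = 0.0469). Ddit4, an inhibitor of mTOR signalling that is induced by stress, had 89.8, 89.8 and 77.0 in SD and 17.7, 70.2 and 18.2 in YD (-50.2 ± 12.9, limma adjusted p = 0.0473). At each of the 3 every YD library was below every SD library, as at 26.5% of the genes tested. The calls were not stable, since Pdia3 was called in 12, Ube2g2 in 4 and Ddit4 in 2 of the 22 alternatives, and none of them when the percentile was taken among the genes tested.

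**Figure D5:**
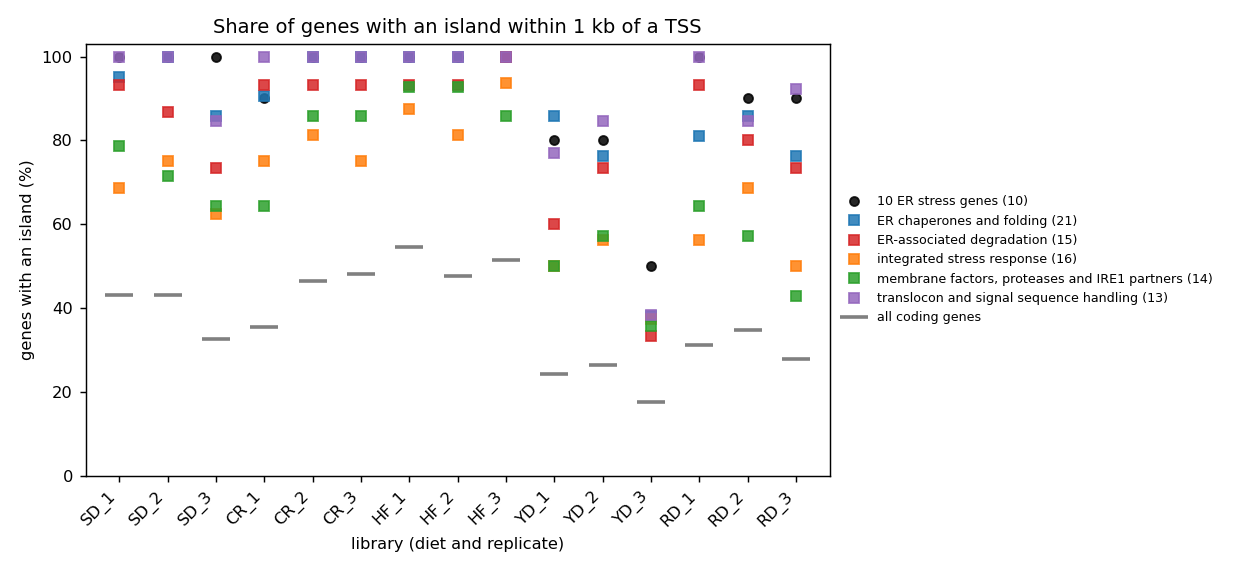
Share of genes with a peak within 1 kb of a TSS in each library, for the 10 ER stress genes (circles), 5 lists of other pathway genes (squares, list size in parentheses) and all protein-coding genes (grey bars). Every list lies above the share of all coding genes in every library, and YD_3 has the lowest shares.

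For each of the 5 genes marked everywhere, the coding gene with the most similar score percentile over the 15 libraries was sought by Pearson correlation, as a description. For Hsp90b1 it was Ttc41 (r = 1.0), since both share the same peak, and next came Ralgapa2 (r = 0.933). For the others it was Rbsn for Atf4 (r = 0.92), Igf1 for Hspa5 (r = 0.858), Aldoa for Calr (r = 0.915) and Psmd14 for Pdia4 (r = 0.916). The libraries share their list length and depth across genes, and the best of all genes tested is high by selection.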

How the data were processed

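H3K4me3 PAT-ChIP-seq of mouse liver was taken from 15 lists of peaks, 1 per mouse, that the authors deposited without pooling of replicates. The authors aligned single reads to mm10 with BWA, filtered them with SAMtools for mapping, duplicates and standard chromosomes, and called peaks per library with SICER2 (windows of 200 bp, gaps of 400 bp, FDR under 0.05). The lists hold chromosome, start, end and a score. The deposited score adds up a Poisson log-probability of the read number over the enriched windows of a peak, and it is not scaled between libraries, so only its rank within a list was used. The versions of these tools are not given in the sources used here. Reads per peak and input controls were not used here.

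Groups came from the labels. TSSs were those of GENCODE M21 (139486 transcripts). The peak of a gene in a library was the highest-scoring one within 1 kb of any TSS. The genes, lists and tests were chosen with earlier results of these data known. All 10 genes were named. Other pathway genes were named when called in a test (at most 10) or when marked in the fewest libraries (at most 15), together with the gene most correlated with each member. Log2 width and score percentile were fitted with limma 3.58.1 (R 4.3.3) over the 2059 coding genes marked in all libraries, with diet as the term and all 15 libraries sharing the spread, and p-values were adjusted by the Benjamini-Hochberg method, with a threshold of 0.05. The fits were tested on simulated data. Other steps used Python 3.11.15, numpy 2.4.6, pandas 2.3.3 and matplotlib 3.10.9. Nothing says that the mice of a diet were housed apart, and p-values measure the spread between mice.

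Library depth was worked out from the steps between the scores of peaks of 1 window, with an effective genome fraction of 0.74. The recovered read numbers lay within 0.00042 of a whole number in 14 libraries. That of YD_1, which has only 2 such peaks, lay 0.27 from one, so the depth of YD_1 is uncertain. The depth at a single peak is unknown, so no counting interval is given. Alternatives were a distance of 3 kb, a TSS inside the peak, peaks of at least 600 bp, peaks at or above the median score, the 7825 highest-scoring peaks of each list, centred widths, summed widths, percentiles among the genes tested, the logit of the percentile, the form of the library name (ChIP in 10, PATChIP in 5), the replicate number as a block, each library left out, and absent peaks as 0. The PATChIP form stood at CR_1, CR_2, HF_2, HF_3 and RD_1 and at no SD or YD library. It is thus partly confounded with diet, and what it stands for is not stated.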

Additional observations from a re-analysis of the deposited data

How the results depend on the processing

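The calls at the 5 genes tested by limma kept their side of the threshold in most alternatives. With absent peaks as 0, an alternative chosen after the data had been seen, 1 gene (Eif2ak3) was called for width across the 5 diets and in YD against SD. Leaving out 1 library gave 0 to 1 called gene for width across diets and in YD against SD (1 without YD_1, Calr) and for the score percentile in YD against SD (1 without CR_1, Hsp90b1). The number of genes with a peak in all libraries, 5, ran from 5 to 7 when a library was left out (7 without YD_3) and was 1, Hspa5, when the TSS had to lie inside the peak. The number lost or gained against SD, 1, was 2 with the TSS inside the peak (Eif2ak3 in YD and RD), 2 with peaks at or above the median score (Eif2ak3 and Ddit3 in YD), and 1 to 2 when a library was left out (Ddit3 without YD_1, Ern1 without YD_2 or RD_1). In RD against YD, 1 became 0 with the TSS inside the peak and with the highest-scoring peaks of each list, was Ddit3 in place of Eif2ak3 with peaks at or above the median score, and 1 to 2 when a library was left out (2 without YD_1). Signs of uncalled differences changed in 5 of 25 widths after centring, and in 9 of 25 percentiles among the genes tested and 7 of 25 with the highest-scoring peaks.

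Same-numbered mice of different diets did not deviate together (mean r = 0.003 over 30 pairs, -0.14 to 0.141, with 6 of 15 libraries closest to their own number). With the replicate block, 0 of the 5 genes were called, no sign changed, and the genes called over the whole table for the percentile in YD against SD went from 68 to 36. That count was 37 on the logit scale and with the name form as a term, 1 among the genes tested, 0 with the highest-scoring peaks, and 3 to 215 when a library was left out (3 without SD_1, 4 without SD_2). Across diets it went from 17 to 61 on the logit scale, 0 with the block or the name form, and 0 to 95 without a library. In RD against YD it was 3, then 0 with the block and 0 to 115 without a library. For width, 0 genes became 314 in YD against SD and 334 across diets without YD_1, and 11 across diets with summed widths. The causes were not tested. Depth and list length limit what an absent peak shows, since YD lists were short.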
